A study of Mus musculus with 12 samples.

Results

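The genes described here encode 10 proteins that sit on lipid droplets or control the release of fatty acids from them, among 55357 gene identifiers counted in each of the deposited tables. They were Plin2, Plin3, Plin4, Plin5, Cidec, Cideb, Hilpda, G0s2, Pnpla2 and Abhd5, and each symbol mapped to 1 Ensembl identifier. The list was selected on the fold changes of esculetin against control in both tables: Plin2 and Hilpda had been seen to be higher in the treated cells and G0s2 lower in the treated liver. The values of the 10 genes in those comparisons are therefore given as a description, without p-values.

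RNA-seq had been carried out on 12 libraries in 4 groups of 3. The liver groups came from wild-type male C57BL6/J mice aged 8 to 9 weeks, gavaged daily for 7 days with esculetin at 90 mg/kg/d or with its 2.5% Tween-80 vehicle. All of these mice were kept for 4 days on a control diet (10% kcal from fat) and for the last 3 days on a high-fat diet (60%). According to the study each liver sample combined a pair of mice, which makes it a small pool. The cell groups were RAW264.7 cells, a mouse macrophage line of wild-type genotype per the labels, held for 24 h with 25 µg/mL of DIL-oxLDL, a dye-carrying oxidized low-density lipoprotein, in both groups. Esculetin, a plant coumarin, was added to the treated cells at 40 µg/mL and DMSO to the controls. Nothing in the labels states that the cell replicates were separate cultures, so p-values measure only the spread between these samples, which may be technical.

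Lipid droplets store triglycerides and cholesteryl esters under a single layer of phospholipid that carries a coat of proteins. Perilipins shield that surface, CIDE proteins promote exchange and growth of droplets, and the lipase ATGL, encoded by Pnpla2, removes the first fatty acid of a stored triglyceride. ATGL is activated by CGI-58, the product of Abhd5, and inhibited by the small proteins encoded by G0s2 and Hilpda. In liver the droplets buffer dietary and circulating fatty acids, and in macrophages that take up modified lipoproteins they fill with cholesteryl esters, the hallmark of foam cells.

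The promoters of the 3 genes that led the choice of the list, and those of the genes that share a motif with them, were read from RefSeq promoters of build GRCm38.p6. All 10 genes matched. The windows covered the 250 bases before a start site and are printed 5′ to 3′ on the strand of the gene. The Plin2 window lies at chr4:86670060-86670309 on the minus strand with 61.6% G or C, and the G0s2 window lies at chr1:193273189-193273438 on the minus strand with 67.2%. Capitals mark AGGTCA or its reverse complement, the core that nuclear receptors such as PPARs bind as part of longer elements.

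Plin2: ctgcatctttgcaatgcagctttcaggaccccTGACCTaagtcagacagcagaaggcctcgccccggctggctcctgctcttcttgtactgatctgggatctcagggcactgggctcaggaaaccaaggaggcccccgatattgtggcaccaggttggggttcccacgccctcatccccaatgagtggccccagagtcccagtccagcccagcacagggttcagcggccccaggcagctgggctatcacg

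G0s2: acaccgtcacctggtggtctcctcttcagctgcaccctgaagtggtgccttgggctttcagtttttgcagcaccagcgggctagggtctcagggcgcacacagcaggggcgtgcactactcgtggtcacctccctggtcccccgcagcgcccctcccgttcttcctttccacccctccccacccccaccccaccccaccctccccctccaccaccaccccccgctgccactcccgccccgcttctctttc

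AGGTCA, searched on both strands, was found before Plin2, Plin5 and Abhd5, which is 3 of the 10 genes. It was also found in 14.0% of all 32851 RefSeq promoter windows of the same length. Here and below a gene was counted if any of its windows matched, whereas the shares are of single windows. Plin5, Cidec and Hilpda have 2 windows each, so the counts and shares are not strictly alike. The matches are shown in stretches of 30 bases. They lie 218 bases before the Plin2 start (chr4:86670260-86670289, minus strand), 170 before a start of Plin5 (chr17:56117701-56117730, minus) and 69 before that of Abhd5 (chr9:122351535-122351564, plus).

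Plin2 stretch: tttcaggaccccTGACCTaagtcagacagc

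Plin5 stretch: agtcctagtctgAGGTCAgccatggtgact

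Abhd5 stretch: gcggcgtcgggcTGACCTtccttaccagtg

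ACGTG, a form of the core of the hypoxia response element, was found before 1 of the 10 genes, Hilpda. The name of that gene (hypoxia inducible lipid droplet associated) records its best known inducer. The match lies 43 bases before the second of the listed starts (chr6:29272571-29272600, plus strand) and is in capitals below. The share of all windows with ACGTG was 16.6%. The other form of the core, GCGTG, was not searched. Its letters, on either strand, occur in both the Plin2 and the G0s2 windows above. They also occur in windows of other genes of the list, among them Hilpda.

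Hilpda stretch: gatggccagcggACGTGccccagggcgagc

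TTNNGNAA, a loose form of the site that C/EBP factors bind, was found before Cidec and before none of the other 9 genes, against 36.8% of all windows. Of the motifs for general promoter factors, CCAAT was found before Plin2, Plin3, Plin4 and Plin5 and in 33.8% of all windows. GGGCGG was found before Plin3, Plin5, Cideb, Hilpda, G0s2, Pnpla2 and Abhd5 and in 32.7%, and TATAAA before Cideb and in 12.4%. No base of the 10 genes' windows lay in matches of 2 motifs. A match describes these letters only, and no binding was measured in the tables used here.

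Libraries held 13752842 to 20346460 counts. In the liver the first principal component, with 39.9% of the variance, placed control replicate 1 far from the rest, at -47.9 against -3.44 to 19.4 for the other 5. In the cells it held 77.9% and separated controls (-52.6 to -49.3) from esculetin-treated cells (40.8 to 60.5). The 7 hepatocyte markers summed to 107133 to 134845 CPM (counts scaled to the library) in the liver libraries and to at most 0.146 CPM in the cells, where Ttr, Apoa1, Serpina1a, Cps1 and Tat were at 0 in all libraries. The 7 macrophage markers were all counted in the cells, at 2220 to 2381 CPM in controls and 4927 to 7429 CPM with esculetin, and summed to 151 to 191 CPM in the liver. In the cells Lyz2 made up most of the difference in this sum, at 600 to 683 CPM in controls and 2584 to 4704 CPM with esculetin, and Csf1r was at 791 to 882 and 1517 to 1760 CPM. Not all markers were higher: Cd68 overlapped between the groups, at 499 to 577 and 541 to 716 CPM, and so did Ptprc, at 167 to 227 and 138 to 170 CPM. In the liver the macrophage sum was 151 to 191 CPM in controls and 156 to 166 CPM with esculetin. Adgre1, Cd68 and Csf1r were lower in every esculetin liver than in every control, beside 7.95% of all genes. Csf1r was at 50.8 to 57.6 and 42.8 to 46.1 CPM. Lyz2, Itgam, Ptprc and Fcgr3 overlapped. Over both liver groups, Kupffer cell markers held 258 to 328 CPM, stellate cell markers 147 to 177 CPM, endothelial markers 157 to 176 CPM and cholangiocyte markers 29.6 to 37.2 CPM. In these bulk samples, fewer cells of a type and less RNA per cell cannot be told apart.

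In the liver, the edgeR quasi-likelihood test called none of the 10 genes at the 0.05 level of the adjusted p-value, beside 0.0859% of the 12813 genes tested (11 genes). All 10 passed the filter on low counts. As a count only, 3 of the 10 had unadjusted p-values under 0.05, beside 1072 of the 12813 genes tested. DESeq2 called 1 of the 10, beside 98 of all genes tested, and limma-voom 0, beside 11. The treated and control libraries did not overlap for G0s2, Abhd5 and Plin2, 1 higher and 2 lower, beside 14.5% of all genes, 6.52% higher and 7.95% lower. The median log2 fold change of the 10 genes was -0.015 and that of all genes was -0.020.

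The largest difference of the 10 in the liver was at G0s2, the ATGL inhibitor (ENSMUSG00000009633, GRCm39 chr1:192949563-192956177, 4 exons). Its level was 239, 171 and 286 CPM in the 3 control livers and 71.9, 118 and 103 CPM in the 3 esculetin livers. Every treated library lay below every control library, although the controls themselves varied 1.67-fold. The mean was 232 ± 57.8 CPM (SD, n = 3) against 97.5 ± 23.5 CPM (n = 3), a log2 fold change of -1.25 (SE 0.21), or a level 2.38-fold lower with esculetin. It ranked 106 by absolute log2 fold change among the 12813 genes. Without control replicate 1, the library that stood apart, the log2 fold change was -1.23. Lamb3, on the opposite strand, shares 2.61% of the exon length of G0s2 and had 86 to 171 counts in the liver.

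Abhd5, the coactivator of ATGL (ENSMUSG00000032540, chr9:122180621-122222936), was higher in the esculetin livers. It measured 20.02, 24.3 and 24.5 CPM in controls and 38.1, 26.8 and 35.1 CPM with esculetin, so that the groups did not overlap but treated replicate 2 lay close to the highest control. The log2 fold change was 0.54 (SE 0.16), or 1.45-fold. Pnpla2, the lipase itself (ENSMUSG00000025509, chr7:141034404-141040656), measured 54.1, 75.3 and 70.2 CPM in controls and 74.4, 75.4 and 79.5 CPM with esculetin. These groups overlapped through control replicate 2, and the log2 fold change was 0.20 (SE 0.14). Hilpda, the other inhibitor (ENSMUSG00000043421, chr6:29272409-29276301), was scarce, with 3.93, 2.76 and 3.79 CPM in controls, 1.96, 3.77 and 3.49 CPM with esculetin and a log2 fold change of -0.19 (SE 0.29).

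Plin2, the perilipin found on droplets of most cell types (ENSMUSG00000028494, chr4:86565912-86588459), was the most abundant of the 10 in liver. It measured 953, 1070 and 1109 CPM in controls and 762, 887 and 833 CPM with esculetin. Every treated library lay below every control, by a small margin next to G0s2: the log2 fold change was -0.34 (SE 0.13), from 1044 ± 80.8 to 827 ± 62.8 CPM (n = 3 each). Plin5, which tethers droplets to mitochondria in tissues that burn fat (ENSMUSG00000011305, chr17:56418446-56424610), differed by less than the spread between replicates. Its level was 83.1 ± 10.6 CPM in controls and 78.7 ± 3.36 CPM with esculetin, with a log2 fold change of -0.078 (SE 0.12).

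Plin3, a perilipin that moves between cytosol and new droplets (ENSMUSG00000024197, chr17:56584218-56599873), measured 33.5, 39.6 and 43.5 CPM in control livers and 41.5, 49.1 and 43.8 CPM in treated ones, which overlapped (log2 fold change 0.20, SE 0.13). Plin4, the perilipin of adipose tissue and muscle (ENSMUSG00000002831, chr17:56406617-56416931), had 3.26 to 5.96 CPM in controls and 1.75 to 4.96 CPM with esculetin (-0.33, SE 0.35). It lies on the minus strand next to Plin5, and 39.1% of its exon length is shared with Hdgfl2 on the other strand. Whether counting used strand is not given in the sources used here, so reads of such pairs cannot be told apart.

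Neither CIDE gene differed in the liver by more than its spread. Cidec (ENSMUSG00000030278, chr6:113400691-113412721), which fuses droplets, measured 7.49, 6.86 and 13.2 CPM in controls and 13.3, 4.74 and 11.0 CPM with esculetin. Cideb (ENSMUSG00000022219, chr14:55991507-55996099), known for lipidating very-low-density lipoproteins, measured 51.1, 58.6 and 83.4 CPM in controls and 64.4, 67.1 and 68.3 CPM with esculetin. Of the Cideb exon length, 67.9% is shared with Nop9 on the opposite strand, which had 341 to 501 counts in the liver. Markers of fat tissue varied among the liver libraries: the 5 adipocyte markers, none of which was at 0 in every library, summed to 4.24, 15.7 and 25.6 CPM in controls and 39.2, 7.66 and 35.7 CPM with esculetin. Cfd made up most of this sum, at 4.24 to 25.3 CPM in controls and 7.40 to 37.1 CPM with esculetin. Adipoq, the gene of adiponectin, had 0 to 5 counts in controls and 4 to 58 with esculetin, and Plin1, the adipocyte perilipin, 0 to 7 and 2 to 41. Adipoq was highest in control replicate 2 and esculetin replicate 3. Retn, Lep and Adig, with 0 to 27, 0 to 3 and 0 to 4 counts in esculetin livers, were also highest there in replicate 3. Only Cfd and the sum that it led were highest in esculetin replicate 1, and in controls the sum was highest in replicate 3. The highest treated values of Cidec and of this sum were both in esculetin replicate 1 and the lowest both in replicate 2. In controls both were highest in replicate 3, but Cidec was lowest in replicate 2 and the sum in replicate 1. Plin4 had the order of this sum with esculetin and the reverse order in controls, at 5.96, 4.49 and 3.26 CPM. Abhd5 had the same order of libraries as this Cfd-led sum within each group, from 20.02 to 24.5 CPM in controls and from 26.8 to 38.1 CPM with esculetin. That order was not shared by the other adipocyte markers with esculetin. The part of fat tissue RNA in the values of Abhd5, Cidec, Plin4 and the other genes was not tested.

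**Figure D1:**
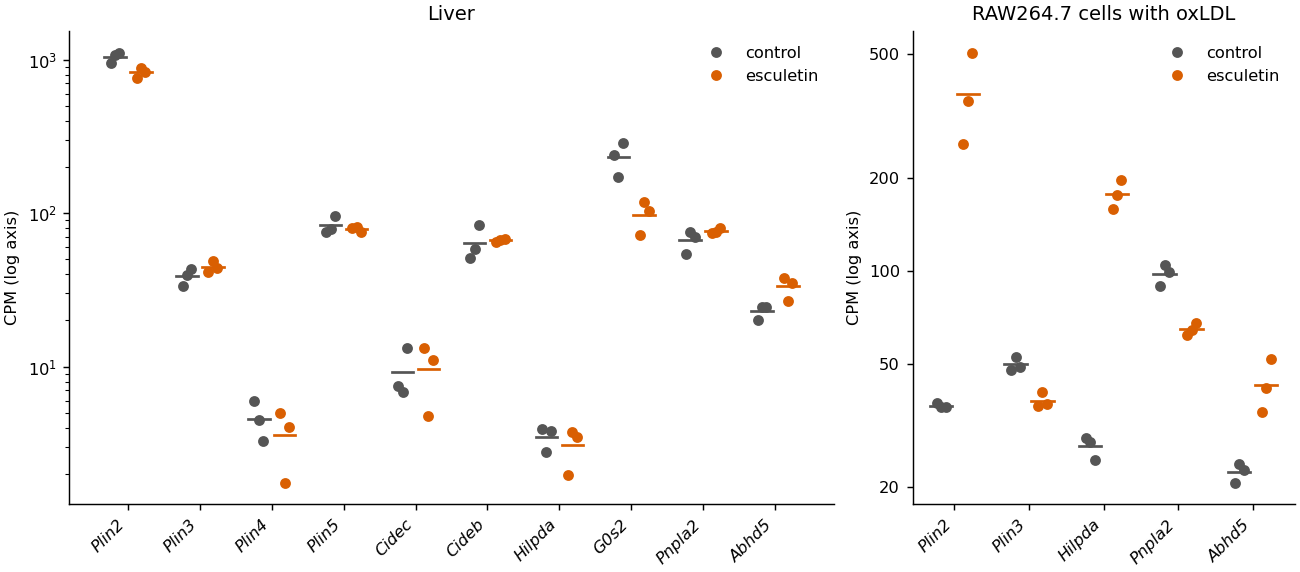
CPM of each gene on a log axis in the liver libraries (left, 10 genes) and in the oxLDL-treated RAW264.7 cells (right, the 5 genes that passed the filter on low counts). Each point is 1 library and each line the mean of 3. In the liver the groups are apart for Plin2, G0s2 and Abhd5, and in the cells for all 5 genes, with Plin2 at 36.1 to 37.4 CPM in controls and 256 to 506 CPM with esculetin.

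In the oxLDL-treated RAW264.7 cells, 5 of the 10 genes passed the filter on low counts and all 5 were called by edgeR at an adjusted p-value under 0.05, beside 57.7% of the 13277 genes tested. Plin2, Hilpda and Abhd5 were higher with esculetin, beside 28.7% of all genes, and Plin3 and Pnpla2 were lower, beside 29%. The groups did not overlap for any of the 5, beside 64.1% of all genes, 31% higher and 33.1% lower. The median log2 fold change of the 5 was 0.94, and that of all genes was -0.013. The 5 were those expressed at this depth, and the list had been chosen with 2 of them known to be higher.

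Plin2 showed the largest difference of the 5. Reads of Plin2 numbered 721, 675 and 743 in the control libraries and 3501, 5174 and 9077 in those with esculetin, or 37.4, 36.3 and 36.1 CPM against 256, 353 and 506 CPM. The controls were tight, while the treated cells spread 1.98-fold from replicate 1 to the highest, replicate 3. The mean went from 36.6 ± 0.668 to 372 ± 126 CPM (n = 3 each), a log2 fold change of 3.34 (SE 0.20) or 10.2-fold. It ranked 117 by absolute log2 fold change among 13277 genes. Without esculetin replicate 3 the log2 fold change was 3.05.

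Hilpda measured 28.7, 28.0 and 24.4 CPM in control cells and 159, 176 and 197 CPM with esculetin. All treated libraries lay far above all controls, and the treated cells spread only 1.24-fold. The log2 fold change was 2.71 (SE 0.11), or 6.55-fold, rank 252 of the tested genes. Abhd5 measured 20.6, 23.7 and 22.7 CPM in controls and 34.9, 41.8 and 51.7 CPM with esculetin. This was 1.92-fold higher, with a log2 fold change of 0.94 (SE 0.14). In the treated cells Plin2, Hilpda, Abhd5 and Pnpla2 were each lowest in replicate 1 and highest in replicate 3. The same order held in these libraries for the sum of the macrophage markers (4927, 5835 and 7429 CPM), which Lyz2 led, and for depth (13752842, 14954496 and 18801094 counts), and the part of either in the spread was not tested.

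The lipase and the cytosolic perilipin were lower. Pnpla2 measured 89.4, 104 and 99.0 CPM in control cells and 61.8, 64.5 and 67.5 CPM with esculetin, a log2 fold change of -0.59 (SE 0.09). Plin3 measured 47.7, 52.8 and 48.8 CPM in controls and 36.5, 40.4 and 37.0 CPM with esculetin, a log2 fold change of -0.39 (SE 0.10). Both gaps exceeded the spread within the groups. The remaining 5 genes were at or near the floor. Cidec and G0s2 had 0 counts in all 6 cell libraries. Plin5 had 0 in the 3 controls and 3, 0 and 5 with esculetin, Plin4 had 3, 6 and 6 against 1, 4 and 3, and Cideb had 6, 0 and 4 against 2, 0 and 2. At this depth no difference was detectable for them.

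**Figure D2:**
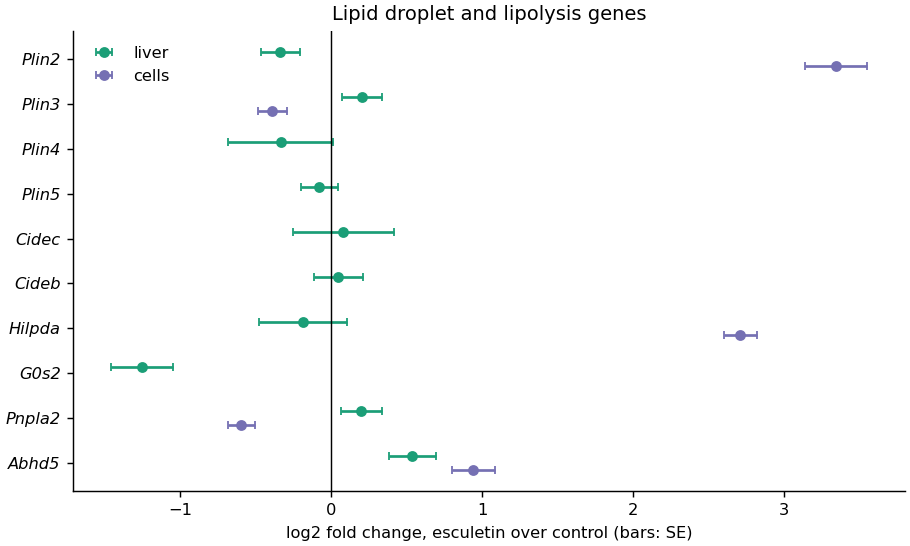
Log2 fold change of esculetin against control (horizontal axis) for each gene in the liver and in the oxLDL-treated RAW264.7 cells, with bars of 1 SE. Only the 5 genes with enough counts have a point for the cells. Plin2 lies at -0.34 in the liver and 3.34 in the cells, G0s2 at -1.25 in the liver, and Abhd5 above 0 in both.

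The tables gave different pictures for the same genes. Abhd5 was higher with esculetin in both, at 0.54 in the liver and 0.94 in the cells on the log2 scale. In the liver its order of libraries within each group was that of the adipocyte marker sum, which Cfd led, and not that of Adipoq. Plin2 lay below its controls in the liver and above them in the cells. Of the ATGL inhibitors, G0s2 was at 0 counts in the cells and was the more abundant in the liver, whereas Hilpda differed in the cells and stayed within 1.96 to 3.93 CPM in every liver library. Dose, route, time and tissue all differed between the tables, and no test of these differences between tables was made, since the genes were chosen with both comparisons known.

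Levels of different genes were compared in TPM, which scales counts by gene length and library, here the summed length of all annotated exons. In control livers Plin2 was first at 464 ± 10.9 TPM, then G0s2 at 174 ± 39.2, Cideb at 130 ± 24.2, Plin5 at 92.4 ± 5.30 and Pnpla2 at 57.6 ± 7.44 TPM (SD, n = 3). Plin3 at 18.1 ± 1.01, Abhd5 at 10.9 ± 0.652, Cidec at 10.0 ± 3.12, Hilpda at 5.84 ± 1.23 and Plin4 at 1.99 ± 0.733 TPM followed. With these lengths G0s2 and Cideb, and likewise Abhd5 and Cidec, did not differ beyond their spread. With lengths of canonical transcripts, an alternative chosen after the data were seen, the order in control livers stayed as it was. The gaps within the pairs were wider there, with G0s2 at 267 and Cideb at 89.1 TPM, and Abhd5 at 13.9 and Cidec at 6.20 TPM.

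In control cells the order was another one, and it depended on the lengths. Pnpla2 came first at 103 ± 7.02 TPM, then Hilpda at 54.7 ± 4.63, Plin3 at 28.3 ± 1.17, Plin2 at 19.8 ± 0.528 and Abhd5 at 13.0 ± 0.773 TPM. With canonical lengths Plin2 moved up to 42.9 TPM, above Hilpda at 31.7 and Plin3 at 30.3, since its canonical transcript has 2050 of 7684 exon bases. In esculetin-treated cells Hilpda was at 346 ± 37.8 TPM and Plin2 at 194 ± 65.4 TPM. Pnpla2 followed at 65.8 ± 3.15 TPM. With canonical lengths Plin2 and Hilpda changed places (434 and 207 TPM), and Pnpla2 still came after them.

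Among the perilipins, the make-up of the coat transcripts moved with Plin2. Plin2 held 80.5% ± 1.02 of the perilipin TPM in control livers and 76.9% ± 1.27 in esculetin livers, and Plin5 held 16.0% and 18.4%. In control cells Plin3 held more than Plin2, at 58.7% ± 1.52 against 41.0% ± 1.59. With esculetin Plin2 held 89.5% ± 2.99 and Plin3 10.3% ± 2.97. That order in control cells held with the summed exon length only. With the length of the longest transcript Plin2 held 55.2% and Plin3 44.6% there, and Plin2 held 87.2%, 84.6% and 93.8% in control livers, esculetin livers and esculetin-treated cells. With canonical lengths Plin2 held 58.6% and Plin3 41.3% in control cells, and Plin2 held 91.5%, 89.6% and 94.6% in the other groups.

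**Figure D3:**
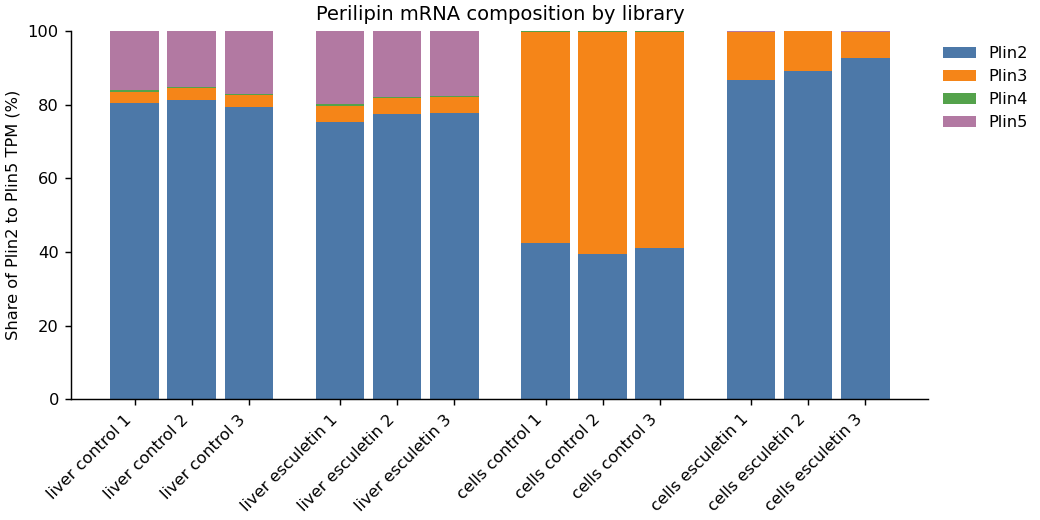
Share of each of the 4 perilipin genes in their summed TPM (vertical axis, percent, from 0), 1 bar for each of the 12 libraries. Plin2 makes up 75.4% to 81.4% of the bar in every liver library, 39.4% to 42.6% in control cells and 86.8% to 92.7% in esculetin-treated cells.

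Ratios within a library relate the regulators to the lipase. G0s2 over Pnpla2, in TPM, was 3.82, 1.96 and 3.52 in control livers and 0.834, 1.35 and 1.12 in esculetin livers, with no overlap (3.10 ± 0.997 against 1.10 ± 0.259). Hilpda over Pnpla2 was 0.534 ± 0.0737 in control cells and 5.24 ± 0.332 in esculetin-treated cells, and 0.104 ± 0.0346 and 0.0768 ± 0.0235 in the liver groups. G0s2 transcripts were thus fewer per lipase transcript in treated livers, and Hilpda transcripts more in treated cells. Abhd5 over Pnpla2 was 0.191 ± 0.0131 and 0.240 ± 0.0431 in the liver, and 0.126 ± 0.00115 and 0.363 ± 0.0553 in the cells. With canonical lengths the first of these ratios was 4.36 and 1.55, and the ratio of Hilpda in the cells was 0.280 and 2.75. The values are of mRNA, and protein amounts and lipolysis were not measured in these tables.

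**Figure D4:**
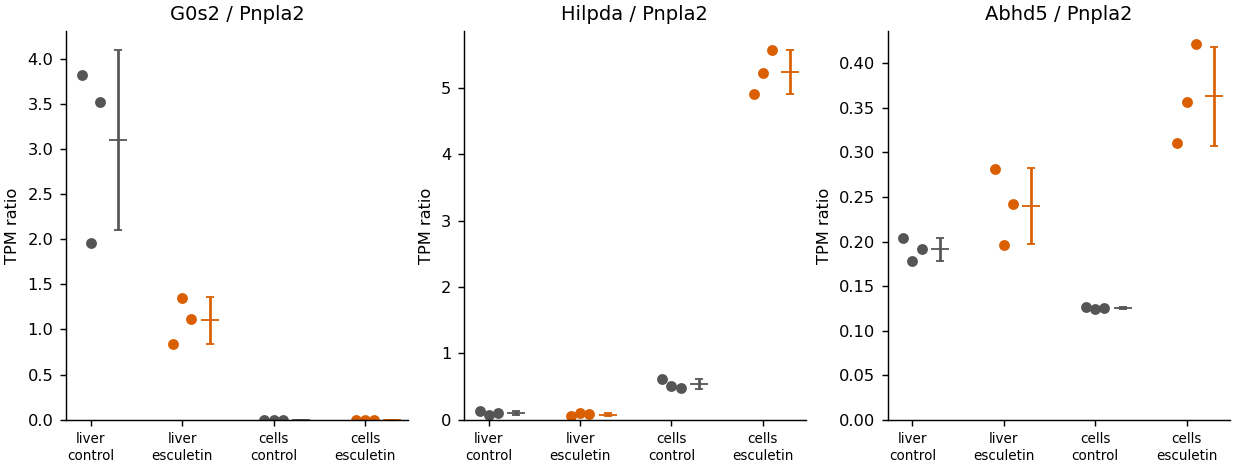
Ratio of G0s2, Hilpda and Abhd5 to Pnpla2 in TPM (vertical axes from 0) in the 4 groups, 1 point for each library and, beside the points, the mean with a bar of 1 SD (n = 3). G0s2 over Pnpla2 is 1.96 to 3.82 in control livers and 0.834 to 1.35 in esculetin livers, and Hilpda over Pnpla2 is 0.472 to 0.616 in control cells and 4.92 to 5.58 in esculetin-treated cells.

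Control cells and control livers were compared in a model of all 12 libraries, a comparison that the choice of the genes had not used. Tissue, diet, oxLDL and count table cannot be told apart in it. All 7 genes with counts on both sides were called, beside 84.9% of the 15709 genes tested, by edgeR with Benjamini-Hochberg adjustment: 6 were lower in the cells (42.8% of all genes) and 1 higher (42.1%). Plin2 was 73.6-fold lower in control cells (log2 fold change -6.20, SE 0.22, adjusted p = 7.48e-14), in all 3 libraries against all 3. Plin4 was lower by a log2 fold change of -5.46 (SE 0.46, adjusted p = 7.89e-09) and Cideb by -9.84 (SE 0.34, adjusted p = 5.04e-14), both on 0 to 6 counts per control cell library. Plin5, Cidec and G0s2 were at 0 counts in all 3 control cell libraries. Against a floor of 3 counts per library, or 0.154 CPM on average, they were at least 539-fold, 59.7-fold and 1506-fold lower in control cells. These floor values use CPM scaled within each table, so they are not on the scale of the folds from the joint model.

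Hilpda was the only one of the 7 that was higher in control cells, 3.02-fold (log2 fold change 1.59, SE 0.19, adjusted p = 5.88e-07), and it was higher under each of the 13 alternatives. Abhd5 was lower by -1.41 (SE 0.16, adjusted p = 3.50e-07), Plin3 by -1.01 (SE 0.12, adjusted p = 3.86e-07) and Pnpla2 by -0.81 (SE 0.12, adjusted p = 6.22e-06). These 3 depend on the scaling. Scaling by library size alone moved the median log2 fold change of all genes from 0.032 to 1.40 and the share of higher calls from 49.6% to 70.1%. Under that scaling Plin3 was at 0.36, Pnpla2 at 0.56 and Abhd5 at -0.033, the last no longer called, while Plin2 was still at -4.83. The direction for Plin3 and Pnpla2 therefore holds only relative to the middle of all genes.

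The other genes of the pathway were followed as 4 lists of 51 genes, compiled from general knowledge with earlier results of these data known. In the liver 48 were tested and edgeR called none, beside 11 of all 12813 genes tested. Of the 48, 11 had an unadjusted p-value under 0.05, beside 1072 of all genes. DESeq2 called 3, beside 98 of all genes, and limma-voom 0, beside 11. Cebpb, encoding the transcription factor C/EBPβ, was at 64.0 ± 14.2 CPM in control livers and 105 ± 13.4 CPM in treated ones (log2 fold change 0.71, SE 0.17, adjusted p = 0.209). Gpam, encoding the acyltransferase that starts glycerolipid synthesis, was at 247 ± 33.9 and 168 ± 11.1 CPM (-0.56, SE 0.13, adjusted p = 0.210). Ces1d, a liver carboxylesterase that hydrolyses triglycerides, was at 1057 ± 230 and 691 ± 101 CPM (-0.61, SE 0.17, adjusted p = 0.306). These 3 are named because DESeq2 called them, a choice made after the values were seen. Of the 9 other lipid ester hydrolases tested, 7 had a negative log2 fold change, with a list median of -0.29 beside -0.020 for all genes, and none was called.

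In the cells 37 of the 51 were tested and 22 changed, 13 higher and 9 lower. This is to be read beside 57.7% of all genes, 28.7% higher and 29% lower. Among droplet biogenesis and coat genes 4 of 9 changed, 2 in each direction. Faf2 and Rab18, which act at the droplet surface, rose by 0.57 (SE 0.11, adjusted p = 0.00127) and 0.41 (SE 0.09, adjusted p = 0.00276) on the log2 scale, and Fitm2, needed for droplet budding from the endoplasmic reticulum, fell by 0.60 (SE 0.15, adjusted p = 0.00424). The list median was 0.065.

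Among the other lipid ester hydrolases 3 of 5 changed. Abhd6, a monoacylglycerol lipase, fell from 56.7 ± 2.56 to 24.6 ± 4.77 CPM (log2 fold change -1.21, SE 0.14, adjusted p = 2.08e-05). Nceh1, a neutral cholesteryl ester hydrolase of macrophages, rose from 48.5 ± 3.63 to 79.6 ± 11.6 CPM (0.72, SE 0.11, adjusted p = 0.000246), and Ddhd2, a triglyceride lipase best known in brain, rose by 0.40 (SE 0.11, adjusted p = 0.00702). The list median was 0.012.

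Of the synthesis genes 9 of 14 changed, 6 higher and 3 lower, with a median of 0.24. Agpat2, which adds the next acyl chain of a glycerolipid, rose from 12.5 ± 0.329 to 26.9 ± 3.20 CPM (log2 fold change 1.11, SE 0.12, adjusted p = 1.96e-05). Lpin1, a phosphatidate phosphatase, fell from 234 ± 6.50 to 120 ± 16.1 CPM (-0.96, SE 0.10, adjusted p = 1.43e-05), and Gpam fell from 64.5 ± 3.63 to 34.5 ± 6.28 CPM (-0.90, SE 0.12, adjusted p = 9.01e-05). Of the relatives of Lpin1, Lpin2 (log2 fold change 0.54, adjusted p = 0.000119) and Lpin3 (0.41, adjusted p = 0.0113) rose by edgeR. Of the relatives of Gpam, Gpat3 rose (1.25, adjusted p = 0.000302) and Gpat4 fell (-0.27, adjusted p = 0.0287). These relatives were named after their values were seen. Genes of the same step thus moved in both directions.

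Of the transcription factors of lipid storage 6 of 9 changed, 3 in each direction, with a median of 0.50. Cebpb rose from 38.5 ± 2.07 to 94.0 ± 16.8 CPM (log2 fold change 1.29, SE 0.12, adjusted p = 6.49e-06). Nr1h2, encoding the liver X receptor β, rose by 0.50 (SE 0.09, adjusted p = 0.000488), and Foxo1, a factor that insulin signalling holds back, fell by 0.64 (SE 0.13, adjusted p = 0.00123). Hif1a, the oxygen-regulated subunit of the hypoxia-inducible factor, was named after its value was seen because Hilpda carries an ACGTG match. Hif1a rose from 184 ± 30.8 to 283 ± 32.2 CPM (0.62, SE 0.12, adjusted p = 0.00126). The values are of mRNA, and a link between Hif1a and the level of Hilpda was not tested.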

How the data were processed

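RNA was measured in 12 libraries, and the authors deposited unnormalized read counts for each gene, with the liver and the cells in separate tables. According to the study and the submitters' processing notes, the authors aligned paired reads with HISAT2 2.2.1 and counted them with featureCounts. The study names build GRCm39, while the notes name GRCm39 and mm10. Strandedness, the treatment of reads with several matches and the annotation release are not given in the sources used here. Of 55357 identifiers, 54749 were found in a GENCODE annotation of GRCm39, which gave symbols and lengths, and 608 were not. No column was left unused (0).

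Each table was fitted alone with edgeR 4.0.16 in R 4.3.3 (filterByExpr, TMM factors, quasi-likelihood test, Benjamini-Hochberg adjustment over all tested genes), and the control groups were compared in a model of 4 groups. P-values are two-sided. An exact permutation test of 3 against 3 cannot go below 0.1. CPM values use TMM factors within a table, and errors are SDs over 3 libraries. SEs were obtained by dividing the absolute log2 fold change by the root of the F statistic. The biological coefficient of variation common to all genes was 16.5% (liver) and 11.8% (cells). The fits were tested on simulated data. DESeq2 1.42.0, limma-voom (limma 3.58.1), other scalings and filters, a replicate block and leaving out each library were alternatives. Python 3.11.15 with pandas 2.3.3, numpy 2.4.6 and matplotlib 3.10.9 was used for tables and figures.

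The 10 genes, the pathway lists and the marker lists were chosen with earlier results of these data known. Named were the 10 genes, pathway genes called in the liver, up to 3 called genes with the smallest p-values of each list in the cells, genes overlapping a listed gene, markers, and the 3 genes of at least 10 CPM with the highest Pearson correlation to Plin2, Hilpda or G0s2.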

Additional observations from a re-analysis of the deposited data

Results flagged for a closer look

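Plin2 lay on opposite sides of its controls in the tables. Its log2 fold change with esculetin was -0.34 in the liver, where each of the 3 treated libraries lay below each of the 3 controls, and 3.34 in the cells, where each treated library lay above each control. The difference between the liver and the cells was not tested, because the gene had been chosen with both comparisons known. Groups of 3 were too small for a search for single outlying libraries of a gene. Across all genes, liver control replicate 1 stood apart on the first principal component, at -47.9.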

How the results depend on the processing

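The number of genes called in the liver, 11, depended on the processing: it was 0 with scaling by library size only, 339 with no filter on low counts, 98 with DESeq2 and 123 with a replicate block. Leaving out 1 library gave 0 to 31, with 0 without control replicate 2, esculetin replicate 1 or esculetin replicate 3 and 31 without control replicate 3. The pathway genes called in the liver went from 0 to 5 with no filter (Cebpb, Ces1d, Gpam, Mlxipl and Plin1), 3 with DESeq2, 2 with the replicate block (Cebpb and Ces1d) and 0 to 1 when a library was left out (Gpam without control replicate 3). G0s2 was at -1.43 to -1.09 in the liver over 14 alternatives and was called under 3 of them: no filter, DESeq2 and the replicate block. Abhd5 (0.42 to 0.66) was called with no filter only, and Plin2 (-0.40 to -0.29) under none. The signs of Plin5, Cidec, Cideb and Hilpda in the liver were each lost under at least 1 alternative. In the cells 6518 to 8061 genes were called, beside 7667, and Plin2 was at 3.05 to 3.55 and Hilpda at 2.63 to 2.78. G0s2, Plin2 and Hilpda had been chosen for these directions, so that keeping them is no sign of stability. Between control cells and control livers, scaling by library size only reversed Plin3 to 0.36 and Pnpla2 to 0.56 and ended the call of Abhd5, and no other alternative changed a direction. The cause of these changes was not tested.

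Whether the replicate numbers pair the samples could not be settled with 3 libraries per group. Deviations of same-numbered libraries correlated at 0.140, -0.0053 and 0.103 in the liver and at 0.165, -0.030 and 0.080 in the cells. In both tables control replicates 1 and 3 correlated best with the esculetin replicate of the same number, and control replicate 2 with esculetin replicate 3. With the replicate block 123 genes were called in the liver, beside 11 without it, 7982 in the cells and 13400 between the control groups. Counts of 0 to 6 per library set the limit for Plin4, Plin5, Cideb, Cidec and G0s2 in the cells.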

Other observations

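In the liver, the genes of at least 10 CPM whose log2 CPM ran closest to that of G0s2 over the 6 libraries were Iqgap1 (Pearson r = 0.979), Fabp1 (0.971) and Srprb (0.971), and 10 of 6759 genes had r above 0.95. These values describe 6 libraries that share their treatment groups. In the cells, where the libraries form separate groups by treatment and no pooled coefficient is given, Slc37a2, Myof and Zfp462 ran closest to Plin2 and Chmp5, Ripk1 and Bnip3 to Hilpda. There, 1399 and 1360 of 8832 genes passed the same limit.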
